A study of Mus musculus with 81 samples.

Results

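Interneuron transcripts were measured in libraries made from captures aimed at cells that are not interneurons. Pyramidal neurons (PNs) of CA1 and CA3 and dentate granule cells (DGCs) were microisolated from the mouse hippocampus, and 10 of the 57010 genes in the count tables were followed: Gad1, Gad2, Slc32a1, Sst, Pvalb, Vip, Lhx6, Npy, Cck and Reln. They were picked by symbol as known genes of inhibitory neurons, but they were also chosen on earlier results of these data, in which several of them were lower in trisomic CA3 PNs on the normal diet. Their levels by population, and every CA3 comparison of genotypes or diets that holds the normal-diet libraries, are therefore given as descriptions, without a test. Relations between members across libraries were tested after the group means were removed.

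The 81 libraries came from 28 male mice at 6 MO, and most mice gave a library of each population. Ts65Dn (Ts) mice carry a small extra chromosome with segments of chromosomes 16 and 17 and are a model of Down syndrome, while 2N mice are their disomic littermates, from female Ts65Dn crossed with C57Bl/6J Eicher × C3H/HeSnJ F1 males. Dams ate chow with 1.1 g/kg choline chloride (ChN) or 5.0 g/kg (ChP) until weaning, and all offspring then ate the 1.1 g/kg chow. CA1 PNs had 6 2N and 5 Ts libraries on ChN and 7 and 9 on ChP, CA3 PNs 6 and 6 on ChN and 7 and 7 on ChP, and DGCs 6 and 6 on ChN and 7 and 9 on ChP. The extra chromosome is carried in the germline and not limited to neurons. Nissl-stained neurons were picked by eye and cut out by laser with no genetic label, those of 1 brain pooled per population, so a capture can hold parts of neighbouring cells.

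Inhibitory neurons make GABA with 2 glutamate decarboxylases, GAD67 (Gad1) and GAD65 (Gad2), and load it into vesicles with the transporter VGAT (Slc32a1). Their classes are told apart by calcium-binding proteins and peptides: parvalbumin (Pvalb) in fast-spiking basket cells, somatostatin (Sst) and often neuropeptide Y (Npy) in dendrite-targeting cells, and vasoactive intestinal peptide (Vip) or cholecystokinin (Cck) in other classes. Lhx6 is a transcription factor of the Pvalb and Sst lineages, and reelin (Reln) is a secreted protein of several interneuron classes and of Cajal-Retzius cells. Some of these genes are not particular to interneurons: hippocampal PNs make Cck, and DGCs are known to hold GAD67 beside glutamate.

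None of the 10 lies in the triplicated segments. In GRCm39, Gad1 spans chr2:70383416-70432372 and Gad2 chr2:22511862-22583886 on the plus strand, and on the same chromosome lie Slc32a1 (chr2:158452605-158464883, plus) and Lhx6 (chr2:35971964-35995601, minus). Reln is at chr5:22089452-22549700 (minus), Npy at chr6:49799026-49806489 (plus), Cck at chr9:121315695-121324863 (minus), Vip at chr10:5589186-5599956 (plus) and Pvalb at chr15:78075314-78091149 (minus). Sst is the member on chromosome 16 (chr16:23707321-23711733, minus), and it lies proximal to the extra segment.

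The peptide genes are textbook targets of cAMP signaling, through a promoter element named for the Sst gene's response to cAMP, so the RefSeq promoter windows (300 bases, from 250 before the start) were searched for its palindrome TGACGTCA and its shorter core TGACG on both strands (the palindrome holds the core on each strand). Of the 10 members 1 (Sst) held the palindrome and 4 (Sst, Vip, Cck and Gad2) held the core, beside 1.79% and 20.8% of 32851 windows. The members are counted per gene and the shares per window, and Lhx6 had 3 windows and Pvalb 2. The site in each of the 4, with 30 bases in GRCm39 read 5′ to 3′ on the gene's strand and the sites in capitals, is shown to place the elements named here. It begins 48 bases before the RefSeq start in Sst, 79 in Vip, 47 in Cck and 33 in Gad2, and in all but Vip it falls within an exon of a longer Gencode transcript. A match is a description of letters and says nothing of use in these cells.
Sst, chr16:23709625-23709654, minus: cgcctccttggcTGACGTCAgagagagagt
Vip, chr10:5589127-5589156, plus: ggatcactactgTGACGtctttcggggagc
Cck, chr9:121324790-121324819, minus: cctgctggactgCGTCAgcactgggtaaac
Gad2, chr2:22512294-22512323, plus: ccatttcccttcCGTCActctctcatctcc

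Libraries held between 358355 and 4744036 expected counts (median 1105133). Levels are in CPM, counts scaled to the library total and by TMM over all 81 libraries, and log2 fold changes (LFC) come from edgeR's quasi-likelihood fit. The summed level of 5 excitatory neuron markers ran from 5780 to 8790 CPM over all libraries, and 5 dentate markers summed to 1951 to 2491 CPM in DGCs and 6 CA3 markers to 802 to 1015 CPM in CA3 PNs. Libraries that stood apart were 10 of the 27 CA1 PN libraries, in which 6 CA2 markers summed to 422 to 1773 CPM against 71.0 to 133.6 CPM in the other 17 (the CA2-poor libraries). In these 10, 6 CA1 markers summed to 68.2 to 1027 CPM, against 1321 to 2031 CPM in the CA2-poor ones and 47.5 to 89.6 CPM in CA3 PNs, and CA3 markers reached 749.5 CPM in a CA1 library, so not all of the 10 held the CA1 list at a level above CA3 PNs. Also apart stood the CA3 PN library of mouse 15-140, with 161 CPM of dentate markers. For mouse 15-145, the CA3 library carries a Ts label and the others carry a 2N label, and it was taken as 2N. Genotype labels were checked with 58 genes of the triplicated chromosome 16 segment, whose median log2 difference from the 2N libraries was 0.31 to 0.67 in Ts libraries and -0.20 to 0.11 in 2N libraries but for 1. The 0.31 was that of the CA1 PN library of mouse 16-272, and the second lowest Ts value in CA1 PNs was 0.49. Library 15-145 stood at 0.08, a 2N level, and the CA1 PN library of mouse 17-154, labelled 2N, stood at 0.62, a Ts level. It was kept under its label, and CA1 values without it are given beside the results. In bulk samples, fewer cells of a type and less RNA per cell cannot be told apart.

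Levels in CA1 PNs pool the CA2-rich and CA2-poor libraries, which are set apart further below. The GABA synthesis genes did not follow one order across the populations. Gad1 was highest in DGCs, where its level ran from 130.8 to 218 CPM with a median of 180.7, against 64.2 to 234 CPM (median 107.6) in CA1 PNs and 51.4 to 128.7 CPM (median 75.8) in CA3 PNs. All 26 mice with both libraries had more Gad1 in DGCs than in CA3 PNs, and 24 of 27 had more in DGCs than in CA1 PNs. The 17 CA2-poor CA1 libraries, at 64.2 to 112.2 CPM, lay wholly below the DGC libraries. With mouse as a block, the LFC of Gad1 was 0.60 (SE 0.09) for DGCs over CA1 PNs, -1.16 (SE 0.10) for CA3 PNs over DGCs and -0.56 (SE 0.10) for CA3 PNs over CA1 PNs. Whether counting used strand is not given in the sources used here. The gene annotated as antisense to Gad1, Gad1os, had no count in 26 of 27 CA1 PN libraries and in all 26 CA3 PN and 28 DGC libraries.

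Gad2 and Slc32a1 did not share this order. Gad2 ran from 32.7 to 98.1 CPM (median 60.2) in CA1 PNs, from 30.3 to 93.2 (median 48.2) in CA3 PNs and from 11.5 to 79.8 (median 43.0) in DGCs. Its LFC was -0.18 (SE 0.14) for CA3 over CA1 PNs, 0.21 (SE 0.14) for CA3 PNs over DGCs and -0.39 (SE 0.14) for DGCs over CA1 PNs, so neighbours in the order of levels did not differ beyond 2 SE. The median levels of Slc32a1 were, in order, those of CA1 PNs (22.3 CPM), CA3 PNs (19.2 CPM) and DGCs (11.7 CPM), and 26 of 27 mice had less in DGCs than in CA1 PNs (LFC -1.04, SE 0.13). Within a library, Gad1 stood at 2.39 to 16.9 times the CPM of Gad2 in DGCs (median 4.29), at 1.09 to 2.98 times in CA1 PNs (median 2.03) and at 1 to 2.32 times in CA3 PNs (median 1.69). No CA3 PN library reached the lowest ratio of the DGC libraries. The Gad1 to Slc32a1 ratio had medians of 14.8 in DGCs, 4.78 in CA1 PNs and 3.44 in CA3 PNs. These ratios are not scaled by transcript length, so they compare populations and not the amounts of the genes.

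Sst was highest in CA3 PNs and near 0 in DGCs. It ran from 7.76 to 131.7 CPM in CA3 PNs (median 35.6), from 0 to 54.5 CPM in CA1 PNs (median 11.99) and from 0 to 7.72 CPM in DGCs. In DGCs, 19 of 28 libraries had no Sst count, and the 28 libraries held 15 Sst counts in all, 6 of them in the Ts ChP library of mouse 15-140. The CA3 PN and DGC libraries did not overlap. The LFC for CA3 PNs over CA1 PNs was 1.5 (SE 0.22), with 23 of 25 mice higher in CA3 PNs, and for CA3 PNs over DGCs it was 6.02 (SE 0.39), a value that rests on the few DGC counts.

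The other class markers were lower in DGCs than in CA1 PNs. Pvalb had medians of 12.3, 7.53 and 2.43 CPM in CA1 PNs, CA3 PNs and DGCs, and all 27 mice had less in DGCs than in CA1 PNs (LFC -2.41, SE 0.22). Vip was highest in CA1 PNs, with 0 to 15.0 CPM in CA1 PNs (median 5.97), 0 to 7.37 in CA3 PNs (median 1.16) and 0 to 3.25 in DGCs. Of the 25 mice with both libraries, 24 had less Vip in CA3 PNs than in CA1 PNs (LFC -2.15, SE 0.30), and 18 of 28 DGC libraries had no count. Lhx6 had medians of 10.01, 5.95 and 4.79 CPM in the same order, from totals of only 295, 277 and 129 counts.

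The remaining peptide and matrix genes each had their own pattern. The median level of Npy was 9.64 CPM in CA3 PNs, beside 6.49 for CA1 PNs and 6.39 for DGCs, with an LFC of 0.70 (SE 0.23) for CA3 PNs over CA1 PNs. Cck, which PNs make themselves, stood at 303 to 589 CPM in CA1 PNs (median 413), at 258 to 652 CPM in CA3 PNs (median 419) and at 26.0 to 67.8 CPM in DGCs (median 53.3). Its DGC libraries overlapped neither PN population (LFC -2.99, SE 0.07, for DGCs over CA1 PNs), while the PN populations differed by 0.02 (SE 0.06). Reln was low in CA1 PNs (0 to 17.1 CPM, median 5.27) and higher in both CA3 PNs (4.44 to 71.6, median 21.0) and DGCs (2.15 to 36.9, median 19.9). Of the 10 members, 3 (Gad1, Sst and Cck) did not overlap between CA3 PN and DGC libraries, beside 8.19% of 20493 genes, 1 (Cck) did not between DGC and CA1 PN libraries, beside 4.74%, and 0 did not between CA3 and CA1 PN libraries, beside 1.95%.

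Levels of different genes can be compared only per length, in TPM. On that scale the median order in CA3 PNs was Cck (820 TPM), Sst (68.3), Gad1 (33.7), Npy (25.0), Gad2 (10.1), Pvalb (9.59), Slc32a1 (7.75), Reln (4.77), Lhx6 (2.99) and Vip (0.73). Gad2, Pvalb and Slc32a1 overlapped over most of their ranges in CA3 PNs, from 4.53 to 32.8, 3.44 to 23.9 and 4.27 to 19.8 TPM. In DGCs the order began with Cck (104.5 TPM), Gad1 (75.4) and Npy (17.3), and Sst and Vip had medians of 0. In CA1 PNs it began with Cck (682.5), Gad1 (36.1), Sst (17.6) and Npy (13.3).

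**Figure D1:**
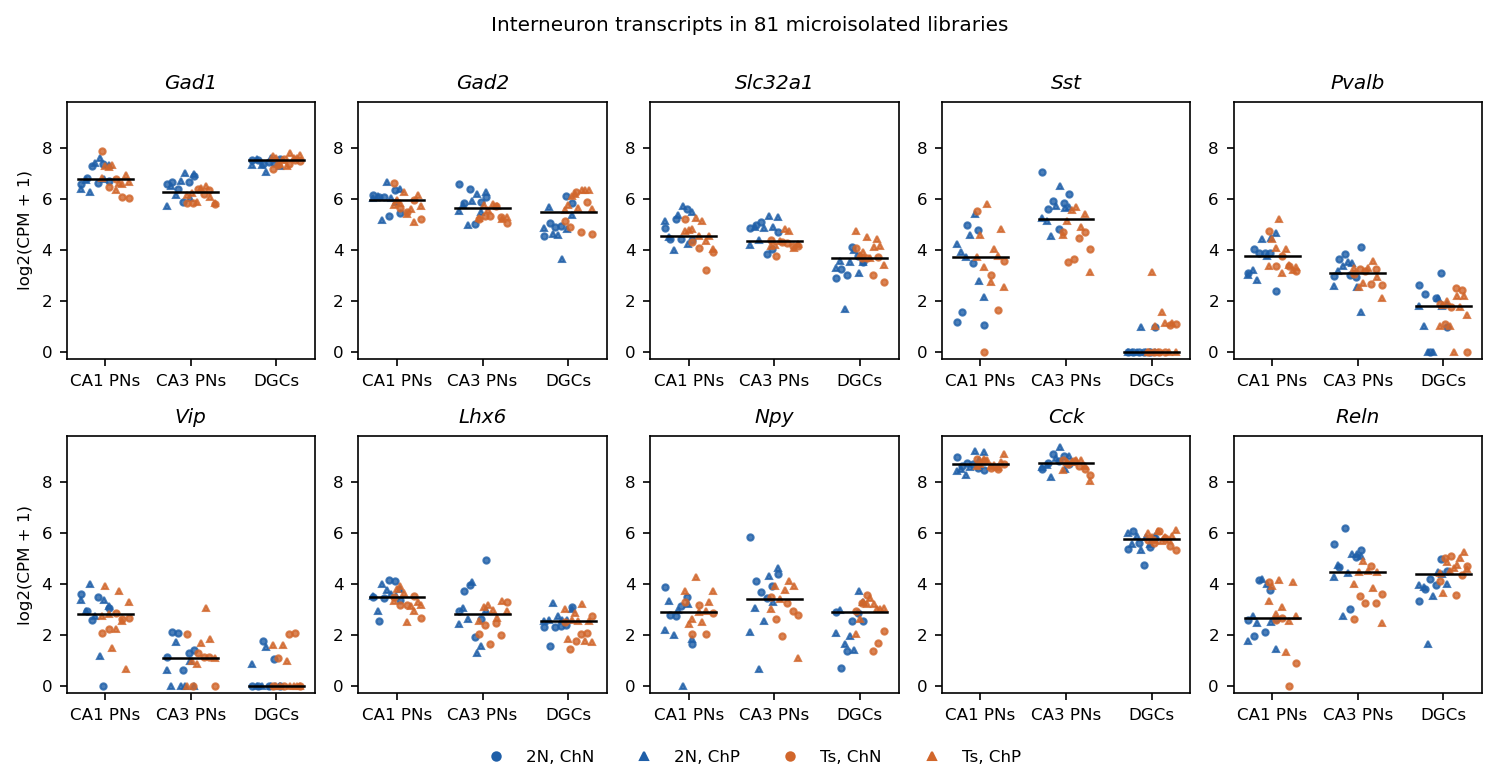
Each point is 1 library, with log2(CPM + 1) on the y axis and the 3 populations on the x axis; blue is 2N, orange is Ts, circles are ChN, triangles are ChP and the black line is the median of the population. Gad1 sits highest in DGCs, Sst lies at or near 0 in DGCs and highest in CA3 PNs, and Cck separates both PN populations from DGCs.

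In CA3 PNs on the normal diet, the comparison by which members were chosen, all 10 LFC values of Ts over 2N were below 0, with a median of -0.71 beside -0.00 over all 13451 genes tested. Sst ran from 10.4 to 24.7 CPM in the 6 Ts libraries (median 18.2) and from 27.3 to 131.7 CPM in the 6 2N libraries (median 56.9). The groups did not overlap (LFC -1.87, SE 0.40). Npy ran from 2.86 to 10.3 CPM in Ts (median 6.23) and from 9.83 to 56.6 CPM in 2N (median 15.0), with 5 of 6 Ts libraries below all 2N libraries (LFC -1.80, SE 0.54). Reln ran from 5.14 to 24.7 CPM in Ts (median 9.51) and from 7.10 to 71.6 CPM in 2N (median 35.7), so the ranges overlapped (LFC -1.58, SE 0.52).

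The same direction held for the GABA genes with smaller values. Gad2 ran from 31.5 to 50.6 CPM in Ts and from 31.1 to 93.2 CPM in 2N (LFC -0.73, SE 0.22), Slc32a1 from 12.5 to 19.5 CPM and from 13.1 to 33.0 CPM (LFC -0.50, SE 0.20), and Gad1 from 54.9 to 82.3 CPM and from 57.9 to 116 CPM (LFC -0.43, SE 0.13). In each of the 3 genes the ranges overlapped while all 6 Ts libraries lay below the 2N median. Lhx6 had 2.15 to 8.78 CPM in Ts and 2.73 to 29.4 CPM in 2N (LFC -1.23, SE 0.47), from 3 to 31 counts a library. Cck, Pvalb and Vip had LFC values of -0.19, -0.47 and -0.69, within 2 SE of 0.

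Of the 10 members, 7 had an unadjusted p under 0.05 in this comparison, all lower in Ts, beside 9.20% of all genes in either direction and 4.30% lower in Ts; nothing is read from this count, since the members were chosen on this contrast. Of other genes, 4 of 14 tested interneuron markers were lower at that threshold and 0 were higher, with a median LFC of -0.21, and Elfn1, a synaptic protein of interneurons, had an LFC of -1.19 (SE 0.28). Of 11 tested genes of a list that holds receptors for the members' ligands and Dab1, the intracellular adaptor of reelin signaling, 2 were higher, Npy5r and Dab1 (LFC 0.56, SE 0.11). Beside these, 3 of 5 astrocyte markers were lower in Ts, with sums of 132.2 to 195.4 CPM in Ts and 150.8 to 248.7 CPM in 2N. The Cajal-Retzius list summed to 12.9 to 21.6 CPM in Ts and 13.1 to 27.9 CPM in 2N, with Lhx1 and Lhx5 at 0 in both groups. The part of these cells in the result was not tested.

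The library of mouse 15-145 bears on this description. It was the deepest, and it held the highest Sst (131.7 CPM), Npy (56.6 CPM) and Gad2 (93.2 CPM) of the CA3 PN libraries. Without it, all 10 LFC values were still below 0, with Sst at -1.47 (SE 0.23), Npy at -1.04 (SE 0.30) and Reln at -1.50 (SE 0.58). Under its own label, as a Ts library, 9 of 10 were below 0 with a median of -0.33, Sst was at -0.34 (SE 0.65), and Npy was at 0.29 (SE 0.73).

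In CA3 PNs on ChP the genotypes lay closer together. Sst ran from 7.76 to 49.6 CPM in the 7 Ts libraries (median 34.1) and from 22.3 to 88.2 CPM in the 7 2N libraries (median 48.0). Npy ran from 1.11 to 16.1 CPM in Ts (median 12.5) and from 0.571 to 23.3 CPM in 2N (median 7.27), and the ranges overlapped for both genes. Of 9 members tested 1 had an unadjusted p under 0.05, beside 4.99% of 14041 genes, and none had an adjusted p under 0.05. That member was Slc32a1, with 15.7 to 27.2 CPM in Ts (median 17.7) and 17.0 to 39.0 CPM in 2N (median 28.4). Its LFC was -0.43 (SE 0.19, unadjusted p = 0.0281, adjusted p = 0.897), and all 7 Ts libraries lay below the 2N median. Without the CA3 library of mouse 15-140 it was -0.41 (SE 0.20). The LFC values of the other 8 ran from -0.39 to 0.42, each within 2 SE of 0. Of other listed genes, 4 of 15 interneuron markers tested (Kcnc1, Lamp5, Kit and Nxph1), 1 of 11 genes of the receptor and Dab1 list (Npy2r) and 0 of 12 interneuron transcription factors were lower at the unadjusted threshold, 0 were higher, and none had an adjusted p under 0.05.

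The diet differences in CA3 PNs share the normal-diet libraries and are described only. In Ts mice all 10 LFC values of ChP over ChN were above 0, from 0.03 to 0.98, with Sst at 0.92 (SE 0.32) and Npy at 0.77 (SE 0.31). In 2N mice 8 of 9 were below 0, with Npy at -1.48 (SE 0.66). At an unadjusted p under 0.05 stood 3 of 10 members in Ts (Sst, Lhx6 and Npy), beside 4.90% of all genes, 1 of 9 in 2N (Npy), beside 4.08%, and 4 of 10 in the genotype by diet term (Sst, Vip, Lhx6 and Npy), beside 4.87%. Nothing is read from these counts, since the normal-diet libraries on which the members were chosen enter each of them. With library 15-145 counted as Ts, the diet LFC in Ts mice was -0.21 for Sst and -0.56 for Npy.

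**Figure D2:**
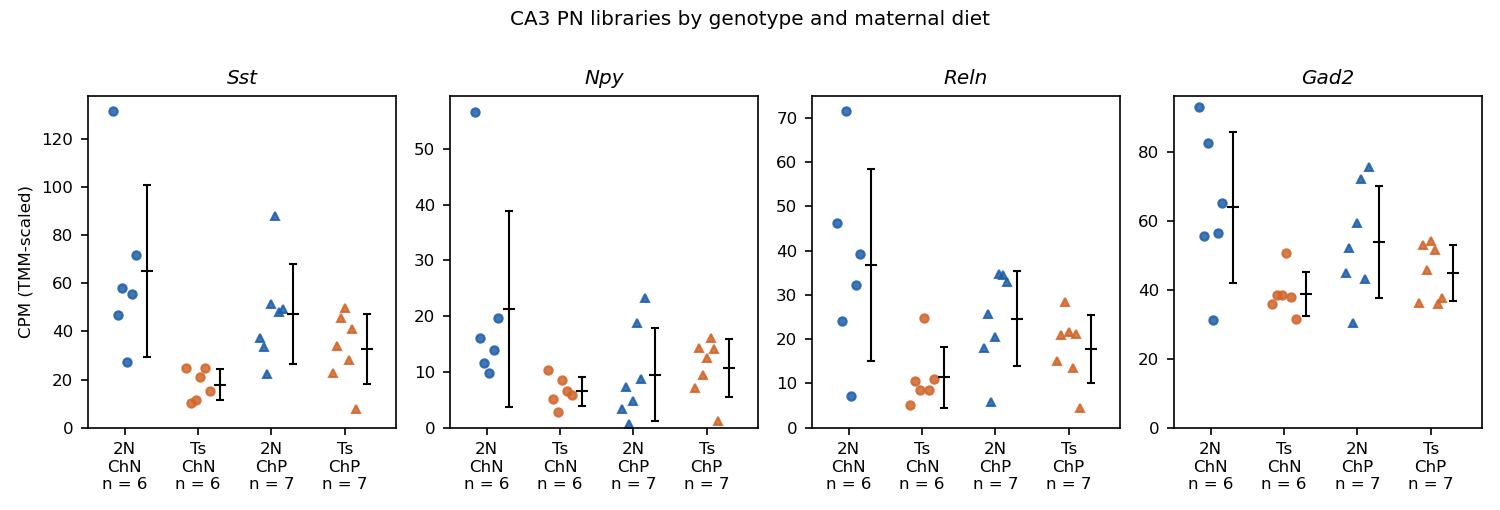
Levels of Sst, Npy, Reln and Gad2 in CA3 PN libraries, in CPM on the y axis, by genotype and maternal diet on the x axis; points are libraries and the black bars are mean and SD. On ChN the 6 Ts libraries lie below all 2N libraries for Sst (10.4 to 24.7 against 27.3 to 131.7 CPM), and on ChP the ranges overlap.

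In DGCs of mice on ChP, Gad2 was higher in Ts than in 2N mice, and Reln, Slc32a1 and Gad1 lay the same way past the unadjusted threshold alone. Gad2 ran from 45.6 to 79.8 CPM in the 9 Ts libraries (median 66.9) and from 11.5 to 49.9 CPM in the 7 2N libraries (median 27.0). All 9 Ts libraries lay above the 2N median and 6 lay above every 2N library, so the ranges met only between 45.6 and 49.9 CPM. The LFC was 1.02 (SE 0.20, adjusted p = 0.0101), and Gad2 was 1 of 63 genes with an adjusted p under 0.05, which is 0.445% of the 14162 tested. Counts behind these levels were 41 to 83 a library in Ts and 7 to 51 in 2N.

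Reln ran from 11.6 to 36.9 CPM in Ts (median 23.4) and from 2.15 to 21.3 CPM in 2N (median 14.4), with 7 of 9 Ts libraries above every 2N library (LFC 0.81, SE 0.22, unadjusted p = 0.000499, adjusted p = 0.0832). Slc32a1 ran from 9.52 to 25.3 CPM in Ts (median 16.3) and from 2.15 to 14.8 CPM in 2N (median 10.4), with 5 of 9 above every 2N library (LFC 0.72, SE 0.26, unadjusted p = 0.00728, adjusted p = 0.317). Gad1 differed less, with 155.9 to 218 CPM in Ts (median 190.8) and 130.8 to 193.4 CPM in 2N (median 159.2; LFC 0.19, SE 0.09, unadjusted p = 0.0337, adjusted p = 0.579). The 4 genes were those of 8 tested members with an unadjusted p under 0.05, beside 7.60% of all genes in either direction and 3.95% higher in Ts.

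The class markers had no unadjusted p under 0.05. Pvalb had 0 to 3.57 CPM in Ts and 0 to 3.28 CPM in 2N, Lhx6 2.24 to 8.17 and 4.81 to 8.61 CPM, Npy 3.04 to 9.74 and 1.64 to 12.3 CPM, and Cck 50.7 to 67.8 and 38.9 to 62.5 CPM, and their LFC values ran from -0.30 to 0.44, each within 2 SE of 0. Sst and Vip did not pass the filter on low values. The Sst counts were 0 to 6 a library in Ts and 0 to 1 in 2N, and a count of 0 at these depths allows up to 3 counts. At the unadjusted threshold, 1 of 9 tested interneuron transcription factors (Sp9), 3 of 16 other interneuron markers (Erbb4, Htr3a and Cnr1) and 1 of 11 genes of the receptor and Dab1 list (Sstr1) were higher in Ts, none was lower, and none had an adjusted p under 0.05.

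Marker sums of several other cell types in these DGC libraries had higher medians in Ts than in 2N mice, with overlapping ranges. Medians were lower in Ts for the CA1 list (35.6 CPM against 42.5 CPM in 2N) and the choroid plexus list (23.0 against 24.6 CPM). Of the choroid plexus list, Folr1 and Clic6 were at 0 in both groups and 1 of 4 genes was tested. The dentate list had medians of 2176 CPM in Ts and 2281 CPM in 2N, and the excitatory list 6658 and 6705 CPM. Ranges overlapped for both, and in each list 1 of 5 genes was lower in Ts at the unadjusted threshold. The 5 astrocyte markers summed to 129.8 to 220.6 CPM in Ts (median 182.2) and 119.6 to 176.4 CPM in 2N (median 147), with 1 of 5 higher at the unadjusted threshold. The 5 microglial markers summed to 17.7 to 38.1 CPM (median 27.45) and 12.9 to 24.5 CPM (median 15.8), with 1 of 5 higher. The 6 CA3 markers summed to 113.1 to 178.7 CPM (median 143.4) and 83.6 to 140.9 CPM (median 116.2), with 1 of 5 tested higher, a median LFC of 0.54 and Prss35 at 0 in both groups. The mossy cell list summed to 0.974 to 10.3 CPM (median 6.88) and 2.94 to 7.02 CPM (median 6.46), with Csf2rb2 at 0 in both. The Cajal-Retzius list summed to 0.974 to 7.09 CPM (median 3.36) and 0 to 4.92 CPM (median 0.801), with Lhx1 and Ebf3 at 0 in both. Their part in the Gad2 and Reln results was not tested. Without the 2N library of mouse 14-125 the adjusted p of Gad2 was 0.0536 (LFC 0.99), and with all 4 DGC groups in 1 fit it was 0.179 (LFC 1.03).

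In DGCs on ChN no member differed by genotype past either threshold. Gad2 in DGCs ran from 23.7 to 75.8 CPM in Ts and from 22.0 to 67.2 CPM in 2N (LFC 0.05, SE 0.38), and 0 of 8 tested members had an unadjusted p under 0.05, beside 8.50% of all genes. Gad1 ran from 140 to 186 CPM in Ts and from 164.5 to 185.8 CPM in 2N. Between diets in Ts mice, Gad1, Gad2 and Slc32a1 were 3 of 8 members with an unadjusted p under 0.05, all higher on ChP, beside 3.94% of all genes. Their LFC values were 0.19 (SE 0.08, unadjusted p = 0.0230), 0.64 (SE 0.27, unadjusted p = 0.0325) and 0.56 (SE 0.24, unadjusted p = 0.0231), each with an adjusted p of 0.999. In 2N mice 0 of 8 stood out, beside 5.52%. The genotype by diet term had 2 of 9 members at the unadjusted threshold, beside 3.97%, namely Gad1 (0.27, SE 0.12, unadjusted p = 0.0302) and Gad2 (0.97, SE 0.43, unadjusted p = 0.0348), both with an adjusted p of 1, so the dependence on diet did not pass the correction. On ChN 1 of 7 transcription factors (Satb1) and 1 of 11 genes of the receptor and Dab1 list (Npy2r) were higher in Ts and 1 of 14 interneuron markers (Adarb2) was lower at the unadjusted threshold. Adarb2 was itself higher in DGCs than in CA1 PNs (LFC 3.77, SE 0.13).

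**Figure D3:**
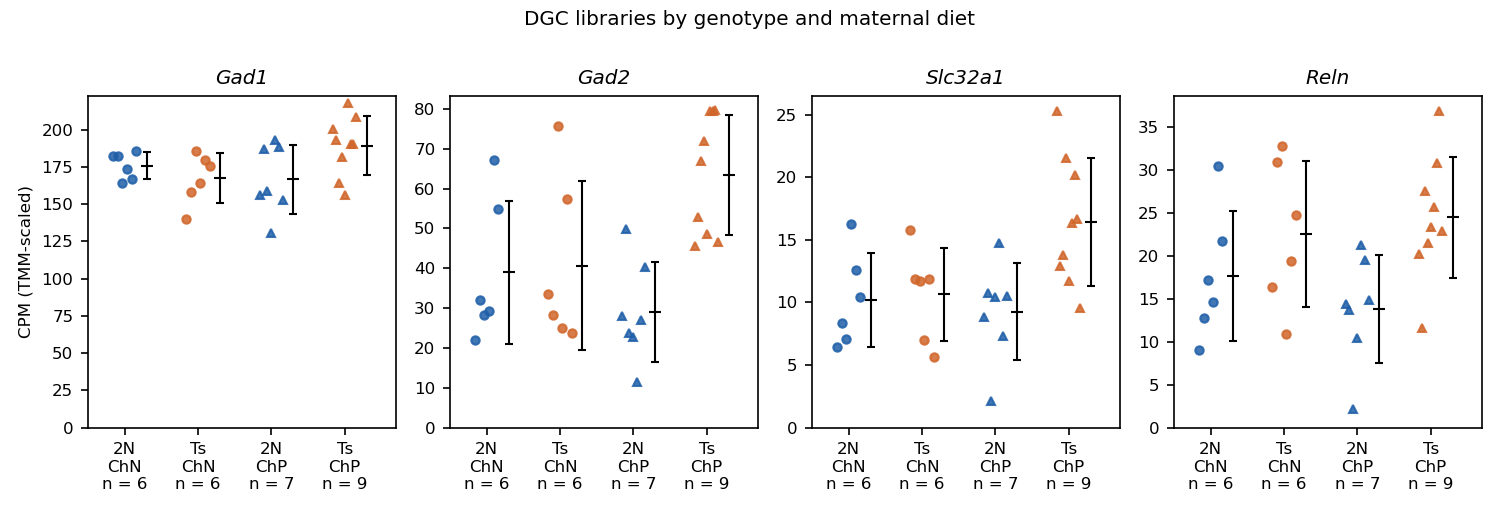
Levels of Gad1, Gad2, Slc32a1 and Reln in DGC libraries, in CPM on the y axis, by genotype and maternal diet on the x axis; points are libraries and the black bars are mean and SD. Gad2 in Ts mice on ChP (45.6 to 79.8 CPM) lies above the 2N median of 27.0 CPM in all 9 libraries.

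In CA1 PNs the members did not differ by genotype or diet past the adjusted threshold. On ChN, 0 of 10 members had an unadjusted p under 0.05, beside 3.77% of all genes, and LFC values of Ts over 2N ran from -0.63 to 0.15. On ChP 1 of 10 did, beside 3.60%. That was Npy, which ran from 4.33 to 18.0 CPM in the 9 Ts libraries (median 6.73) and from 0 to 9.02 CPM in the 7 2N libraries (median 3.53), with overlapping ranges (LFC 0.88, SE 0.41, unadjusted p = 0.0420, adjusted p = 1). Of the diet comparisons, 0 of 10 did in 2N mice (beside 2.24%), 0 of 10 in Ts mice (beside 3.26%) and 0 of 10 in the genotype by diet term (beside 3.22%). The smallest adjusted p over the members in these comparisons was 1. Without the library of mouse 17-154, 0 of 10 members had an unadjusted p under 0.05 on ChN and between diets in 2N mice, and 1 of 10 (Npy) in the genotype by diet term. On ChP, 1 of 12 transcription factors (Sp9) and 2 of 16 interneuron markers (Cnr1 and Adarb2) were lower in Ts at the unadjusted threshold, and 0 of 11 genes of the receptor and Dab1 list.

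The spread of the members in CA1 PNs went with CA2 marker content. In the 10 CA2-rich libraries Gad1 ran from 119 to 234 CPM (median 158.3), and in the other 17 from 64.2 to 112.2 CPM (median 95.9), with no overlap. Slc32a1 had medians of 36.2 and 19.7 CPM, Sst of 26.6 and 7.03 CPM, Reln of 15.2 and 4.80 CPM, Pvalb of 18.1 and 9.14 CPM and Gad2 of 72.2 and 48.5 CPM, with overlapping ranges, while Npy (6.24 and 6.49 CPM) and Vip (4.04 and 6.71 CPM) were not higher. The CA2-rich libraries were 2 of 6 in 2N ChN, 1 of 5 in Ts ChN, 3 of 7 in 2N ChP and 4 of 9 in Ts ChP. Without them, a choice made after seeing the data, 2 of 10 members had an unadjusted p under 0.05 in Ts over 2N on ChN (Gad1, LFC -0.32, SE 0.15, and Slc32a1, LFC -0.59, SE 0.28), beside 6.82% of genes, and none had an adjusted p under 0.05. On ChP, 1 of 10 did (Cck, LFC 0.20, SE 0.09), beside 7.002%, and Npy had an LFC of 0.50 (SE 0.42). For ChP over ChN, 1 of 10 did in 2N mice (Sst, LFC 1.79, SE 0.51, adjusted p = 0.341), beside 4.99%, and 2 of 10 in Ts mice (Slc32a1, LFC 0.64, SE 0.26, and Npy, LFC 0.83, SE 0.41), beside 3.92%. In the genotype by diet term 0 of 10 did, beside 4.88%, and no member had an adjusted p under 0.05 in any of the 5 comparisons. The 2 CA2-rich libraries in 2N ChN were those of mice 17-21 and 17-154. Leaving them out therefore also removed the 2N-labelled library that stood at a Ts level. CA1 values without that library alone are given above.

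Whether the genotype difference itself differed between populations was tested with mouse as a block. On ChP the Gad2 difference in DGCs exceeded that in CA1 PNs by an LFC of 1.38 (SE 0.23, adjusted p = 0.00150) and for CA3 PNs minus DGCs it was -1.24 (SE 0.23, adjusted p = 0.0316). Without the replicate block, the adjusted p values of these 2 were 0.203 and 0.532, with differences of 1.33 and -1.25. Slc32a1 had differences of 1.07 (SE 0.30, adjusted p = 0.615) and -1.27 (SE 0.31, adjusted p = 0.343) in the same direction. At the unadjusted threshold stood 2 of 10 members for DGCs against CA1 PNs (Gad2 and Slc32a1), beside 4.25% of all genes, 3 of 10 for CA3 PNs against DGCs (those and Reln), beside 3.93%, and 1 of 10 for CA3 PNs against CA1 PNs (Vip), beside 3.52%. On ChN, 0 of 10 did for DGCs against CA1 PNs, beside 4.90%.

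**Figure D4:**
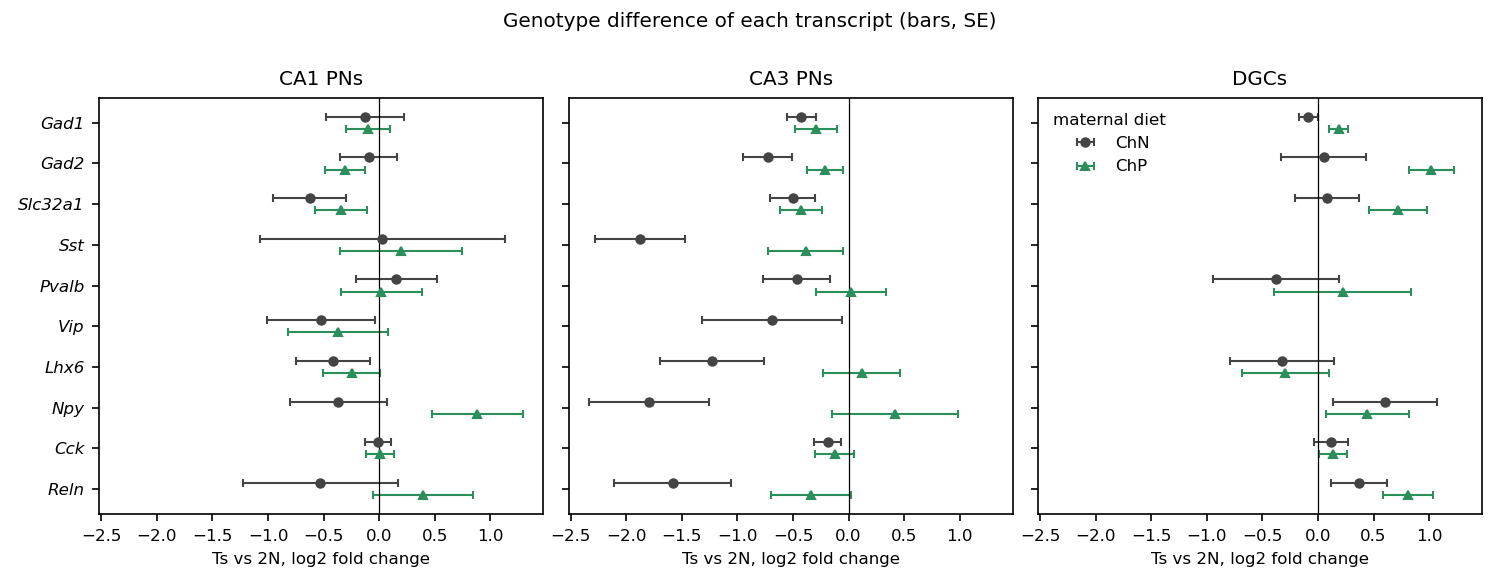
LFC of Ts over 2N on the x axis for each member on the y axis, with bars of 1 SE, in the 3 populations; dark circles are ChN and green triangles are ChP, and members that did not pass the filter have no point. In CA3 PNs on ChN all 10 values are below 0, and in DGCs on ChP Gad2 stands at 1.02.

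Whether transcripts of the same cells varied together was asked of the deviations of log2 CPM from the genotype and diet group means, in 21 relations across libraries or mice with a two-sided permutation test. The 12 relations within a population and the 9 between populations were adjusted together, pooled CA1 values included. Relations with CA3 PNs include the normal-diet libraries on which members were chosen. Group means were removed first, but whether that choice bears on these p values was not tested. In CA3 PNs (n = 26), Sst and Npy varied together (r = 0.82, permutation p = 1e-05, the smallest the resamples can give, adjusted 0.000105; rho = 0.75, permutation p = 3e-05, adjusted 0.00063), with r = 0.75 without the 2 libraries farthest from the median, and 0.87 and 0.80 within ChN and ChP. Gad1 and Gad2 had r = 0.67 (permutation p = 0.00018, adjusted 0.000945) and rho = 0.64 (permutation p = 0.00059, adjusted 0.0031), and r = 0.60 without the 2 farthest libraries. Gad1 and Slc32a1 had r = 0.66 (permutation p = 0.00037, adjusted 0.00155) and rho = 0.61 (permutation p = 0.00094, adjusted 0.00395), and r = 0.48 without the 2 farthest. Gad1 and Sst had r = 0.46 (permutation p = 0.0177, adjusted 0.0531) and rho = 0.42 (permutation p = 0.0340, adjusted 0.102).

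In CA1 PNs the CA2-rich and CA2-poor libraries form separate sets, so the 4 relations were computed within each, from genotype and diet means of that set alone, and no pooled value is given. The 1 CA2-rich Ts ChN library has no deviation and was left out. In the CA2-rich set the 2N ChN group held 2 libraries, of mice 17-21 and 17-154, whose deviations mirror each other. The exact permutation counts all orders but treats deviations as free to swap, which does not strictly hold for groups this small. Gad1 and Slc32a1 had r = 0.77 (exact permutation p = 0.0139, adjusted over these 8 values 0.111) and rho = 0.77 (exact permutation p = 0.0214, adjusted 0.171) in 9 CA2-rich libraries, with r = 0.80 without the 2 farthest, and r = 0.20 and rho = 0.16 in the 17 CA2-poor ones (adjusted permutation p = 0.693 and 0.730). Gad1 and Gad2 had r = -0.34 and 0.31 in the 2 sets, Gad1 and Sst 0.40 and -0.11, and Sst and Npy 0.09 and 0.17, with adjusted permutation p of 0.693 or more for r and 0.722 or more for rho. None of these relations passed the correction. In DGCs (n = 28) Gad1 went with neither Gad2 (r = 0.09, rho = 0.03, adjusted permutation p = 0.816 and 0.910) nor Slc32a1 (r = 0.02, rho = 0.02, adjusted permutation p = 0.937 and 0.910), and the other 2 relations had r = -0.10. The difference in r between populations was not tested. Between CA3 PNs and DGCs of the same mouse (n = 26), Gad1 had r = 0.12 and rho = 0.14 (adjusted permutation p = 0.809 and 0.773), Sst r = 0.23 and rho = 0.20 (adjusted permutation p = 0.508 and 0.684) and Cck r = -0.02 and rho = -0.03 (adjusted permutation p = 0.937 and 0.910). The 6 such relations with CA1 PNs are not given, since they pool the CA2-rich and CA2-poor libraries.

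**Figure D5:**
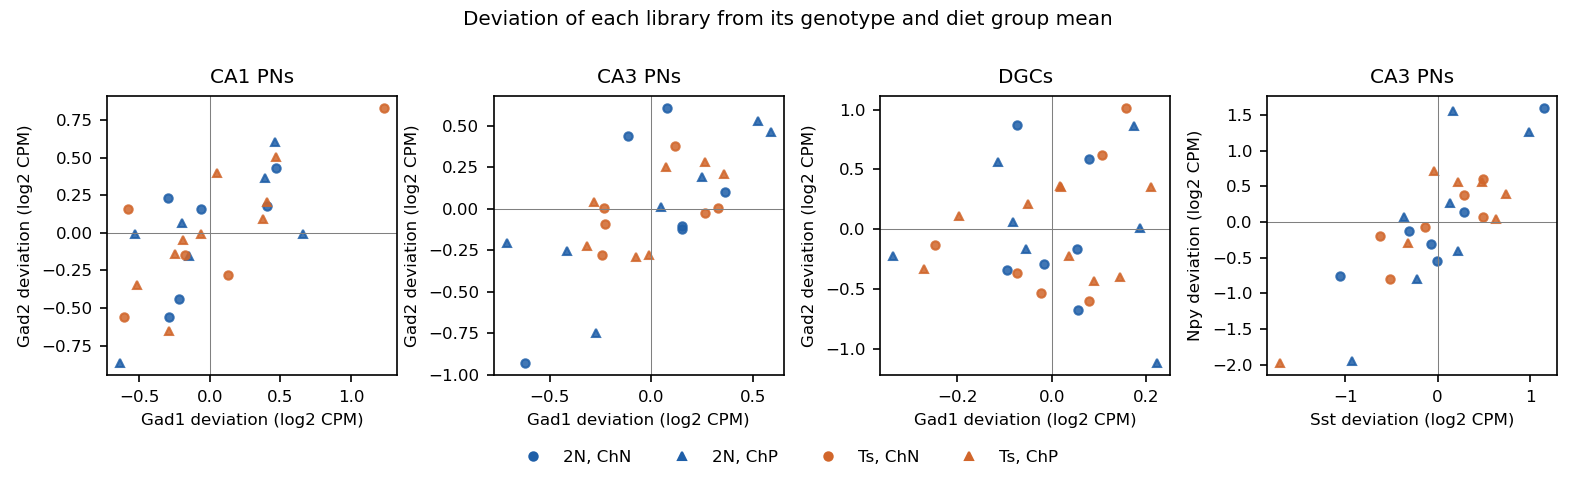
Deviations of log2 CPM of each library from its genotype and diet group mean, for Gad1 (x axis) and Gad2 (y axis) in CA1 PNs, CA3 PNs and DGCs, and for Sst (x axis) and Npy (y axis) in CA3 PNs; colors and symbols are genotype and diet, and the CA1 panel holds CA2-rich and CA2-poor libraries together. The Gad1 and Gad2 points follow a slope in CA3 PNs (r = 0.67) and spread without one in DGCs (r = 0.09).

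Over all 81 libraries, the gene most like each member was sought by Spearman's rho of the same deviations among genes with a mean of at least 5 CPM, as a description over libraries that share mice and sequencing depth and with the CA2-rich and CA2-poor CA1 libraries together. Gad2 was most like Elfn1 (rho = 0.68) and Col19a1 (0.63), Gad1 like Tafa2 (0.66) and Stc2 (0.65), Slc32a1 like Fgfr1 (0.58) and Tmem151b (0.58), and Reln like Fchsd2 (0.58) and Kif5c (0.56). Sst was most like Reln (0.49) and Foxn3 (0.48), and Gad2 was among the genes most like Npy (0.43). Pvalb was most like Ank1 (0.55) and Stat3 (0.45), Vip like E430024I08Rik (0.57) and Sbf2 (0.52), Lhx6 like Nrbp2 (0.46) and Emc6 (0.45), and Cck like Napa (0.48) and Abcb10 (0.48).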

How the data were processed

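RNA of laser-captured CA1 PNs, CA3 PNs and DGCs was sequenced by the authors (stranded total RNA, 81 libraries). Per the labels and the authors' methods, reads were checked with FastQC 0.11.9, trimmed with Trimmomatic 0.39, mapped by STAR (GRCm39) and counted by RSEM, and Picard 2.26.2 is named as well; mm10 is listed beside GRCm39 in the submitters' processing notes, with no role given. The deposited expected counts were not normalized, and the deposited TPM values, used only to compare genes with each other, are scaled per length by RSEM. RSEM divides reads that match several genes. Counts were equal in the matrices and the files per library (tolerance 0.01), and 2.82% of those above 0 were not whole.

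Expected counts were rounded. As in the study, a gene needed more than 0.1 CPM in 10 or more of the compared libraries. The test was edgeR's quasi-likelihood (4.0.16, in R 4.3.3, with TMM, robust glmQLFit and glmQLFTest, two-sided), adjusted by Benjamini-Hochberg over all genes tested, with no covariate, since the study's RNA concentration and read percentages were not used here. Mouse was a block between populations, whose libraries come from the same mice. Relations used log2 CPM with a prior count of 2 and 100000 resamples (scipy 1.17.1). Alternatives were library totals, DESeq2 1.42.0, limma-voom (limma 3.58.1), no filter, filterByExpr (minimum count 10), all 4 groups of a population in 1 fit, no replicate block, library 15-145 under its own label, a prior count of 0.5 and leaving out each library, and, in CA1, libraries 17-21 and 17-154 (the filter then asks for 1 library fewer). Leaving out CA2-rich CA1 libraries (over 200 CPM) and CA3 library 15-140 and computing CA1 relations within the CA2-rich and CA2-poor sets were chosen after seeing the data. The fits were tested on simulated counts. The members and lists were chosen with earlier results of these data known. Named are all 10 members, with LFC, SE and p where the unadjusted p was under 0.05, listed genes with an adjusted p under 0.05 (others, in counts of 5 or fewer, were picked for naming with their values known), and the 2 most alike genes per member. A few results of the listed genes are not reported here. The label check used chromosome 16 genes from Mrpl39 to Zbtb21 with a mean of at least 5 CPM. Promoter windows are RefSeq's (GRCm38.p6), placed in GRCm39 by exact, unique match. Counts were the only depth measure, so limits at 0 cover counting error only. Each library came from 1 mouse.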

Additional observations from a re-analysis of the deposited data

Results flagged for a closer look

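A library far from the others of its group was flagged past Dixon's critical value. Chance passes that value in about 1 of 20 groups only where values are normally distributed. Low counts are not, and any count in 1 library passes where the rest are 0, so the flags have no known chance rate. Flagged libraries were found in 15 of 120 combinations of member and group. In CA1 PNs they were the Ts ChN library of mouse 16-357, with Gad1 at 234 CPM (others 64.2 to 108.1), Sst at 44.1 CPM (others 0 to 10.6) and Pvalb at 25.2 CPM (others 7.92 to 12.3), and the Ts ChP library of mouse 15-199, with Sst at 54.5 CPM (others 4.81 to 26.8) and Pvalb at 35.4 CPM (others 7.42 to 20.5). Both are among the CA2-rich libraries. In CA3 PNs they were mouse 15-145 (2N ChN) with Npy at 56.6 CPM (others 9.83 to 19.6), mouse 17-157 (Ts ChN) with Reln at 24.7 CPM (others 5.14 to 10.98), mouse 17-192 (Ts ChN) with Lhx6 at 8.78 CPM, mouse 15-334 (2N ChP) with Lhx6 at 15.8 CPM, mouse 15-296 (2N ChP) with Vip at 2.29 CPM and mouse 15-36 (Ts ChP) with Vip at 7.37 CPM.

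In DGCs they were Sst at 0.948 CPM in mouse 17-56 (2N ChN) and at 0.948 CPM in mouse 15-334 (2N ChP), where all other libraries of the group had no count, Sst at 7.72 CPM in mouse 15-140 (Ts ChP; others 0 to 1.95) and Vip at 1.90 CPM in mouse 15-334 (2N ChP). These DGC values rest on 1 to 6 counts. The Gad2 difference by genotype on ChP differed between populations in a test of the difference itself, by 1.38 for DGCs minus CA1 PNs and by -1.24 for CA3 PNs minus DGCs (log2). Without the replicate block the adjusted p values were 0.203 and 0.532, so neither call held.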

How the results depend on the processing

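Over the counts of members past a threshold and the relations, 189 alternative values stayed within 1.5 times the reported count or on its side of the threshold, and the others follow. In DGCs on ChP, Ts over 2N, where 1 member (Gad2) passed, 2 passed without a filter, 0 with all 4 groups in 1 fit, and 0 to 2 on leaving out 1 library (0 without 2N 14-125, 2 without 2N 15-336 or Ts 15-140). In CA3 PNs on ChN, described only, 0 passed; 2 did with DESeq2, 1 with limma-voom, 2 without a filter, 1 with all 4 groups in 1 fit and 0 to 3 on leaving out 1 library (1 without 2N 15-145, 3 without 2N 17-172). In CA3 PNs, ChP over ChN in Ts, 1 in place of 0 passed without a filter. Nothing is read from these CA3 counts, since the normal-diet libraries on which the members were chosen enter them. In the paired comparison of genotype differences between populations on ChP, 0 in place of 1 passed without the replicate block, for both DGCs minus CA1 PNs and CA3 PNs minus DGCs.

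Of the single values under an alternative, 593 were classed as the same, 40 as weaker and 35 as moved. Signs turned for 8 single values. With library 15-145 under its own label, these were Npy, Ts over 2N on ChN in CA3 PNs (0.29), Sst (-0.21) and Npy (-0.56), ChP over ChN in Ts CA3 PNs, and Sst in the CA3 genotype by diet term (-0.028). Between populations, these were Gad2 for CA3 over CA1 PNs in 2N ChN libraries alone (0.090) and, with library totals, Cck for CA3 over CA1 PNs (-0.047) and Gad2 (-0.019) and Reln (-0.092) for CA3 PNs over DGCs, all near 0 in either setting. In 2N ChN libraries alone, the LFC for CA3 over CA1 PNs was 2.39 (SE 0.56) for Sst, 1.36 (SE 0.32) for Npy and 2.21 (SE 0.36) for Reln. For CA3 PNs over DGCs in the same setting it was 2.25 (SE 0.35) for Npy, 0.68 (SE 0.25) for Gad2 and 0.91 (SE 0.31) for Reln. The cause was not tested. With 1 library left out, an unadjusted p under 0.05 was kept by Npy in CA1 PNs on ChP in 9 of 16 fits, by Slc32a1 in CA3 PNs on ChP in 10 of 14 (lost without 2N 15-336, 2N 16-90, Ts 14-90 or Ts 16-206) and by Gad1 in DGCs on ChP in 10 of 16. Low counts (Vip, Lhx6, Pvalb and DGC Sst) limit precision.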
